A study of Mus musculus with 6 samples.

Results

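The 42 genes described here encode chaperones, protein-import machinery and stress sensors of the endoplasmic reticulum (ER), with the transcription factors of the unfolded protein response. They were taken by gene symbol from a list, and all 42 were found in both deposited columns, among 21950 gene symbols listed in both. The comparison was between the ileum (the distal small intestine) of 3 wild type mice and that of 3 TLR4ΔIEC mice, all C57BL/6 and 24 weeks old. TLR4ΔIEC mice carry a conditional deletion of Toll-like receptor 4 (Tlr4), the sensor of bacterial lipopolysaccharide, in intestinal epithelial cells. The sources used here do not state the Cre driver, the exons removed or whether the wild type mice carried a floxed allele. Whole ileum was taken, so epithelium, immune cells and connective tissue all contributed RNA. Sequencing libraries were prepared after removal of ribosomal RNA, with 1 barcode per mouse, and the deposited values were 1 column of average read coverage per genotype. Each column belonged to all 3 mice of its genotype, so there were no replicates, and no spread between mice and no test can be given for any value below.

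Proteins that will be secreted, placed in membranes or sent to lysosomes enter the ER through the Sec61 channel, where signal peptidase removes the signal peptide. Inside, chaperones of the Hsp70 and Hsp90 families, lectin chaperones and disulfide isomerases fold them, and chains that fail are sent back to the cytosol for degradation. When unfolded chains build up, the sensors Ire1, Perk and Atf6 start the unfolded protein response. Atf6 and the factor Xbp1, which Ire1 activates by splicing its messenger RNA, raise chaperone and degradation genes, while Perk slows translation and favours production of Atf4, which drives Ddit3 (Chop). In the intestine this system is best known in Paneth cells, goblet cells and plasma cells, which secrete large amounts of protein.

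The wild type column listed 22724 transcript entries with a median coverage of 1.57 reads per base, and for TLR4ΔIEC there were 22687 entries with median coverage 1.70. Levels are given in units, the coverage after both columns were brought to 1 scale with a mean total of 1000000, and the 8888 genes whose mean reached 5 units form the background. Coverage is already an average per base, so levels can be compared roughly between genes. Near-identical copies, overlapping exons and the transcript length behind each average limit such comparisons. The ileal markers Fabp6, the bile acid binding protein, and Slc10a2, the ileal bile acid transporter, were present in both columns (15333 and 13619 units for Fabp6, 92.9 and 93.6 for Slc10a2, wild type first). Of the 5 ileum markers listed, 2 were higher in TLR4ΔIEC and 3 lower, 1 of them by at least 1.5-fold (10.2% of the background). Tlr4 itself was weakly covered, at 2.90 units in wild type against 2.24 in TLR4ΔIEC. This value covers the whole transcript in whole tissue and checks the genotype labels only weakly. Libraries were pooled by genotype for sequencing (3 mice a pool), and differences between the genotypes cannot be told apart from differences between the pools.

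The promoters of several of these genes carry the ER stress response element (ERSE), the sequence through which Atf6 and Xbp1 are known to act. RefSeq promoter windows (GRCm38.p6, 250 bases before to 50 bases after each annotated start, both strands searched) were matched for 33 of the 42 genes, 2 of which had more than 1 window. Hyou1, Manf, Ssr2, Atf6, Sec61a1, Sec11c, Ern2, Spcs3 and Derl1 had no match by symbol. The ERSE, searched as CCAAT, 9 bases of any kind and CCACG, was found near 8 genes, which was 24.2% of the 33. Of 6488 background genes with a window, 13 (0.200%) held a match, and 8 of these 13 were members of the set. Over all 32851 windows the share with a match was 0.119%. The stretches are shown because they match the stress element in these 8 genes, while the windows of the other 25 held no exact match. A search for exact letters in these windows cannot show that a gene lacks the element. Each is written 5′ to 3′ on the strand of its gene, and capitals mark the CCAAT and CCACG blocks or, where the element lies the other way round, CGTGG and ATTGG.
Hspa5 (chr2:34772020-34772048, plus strand): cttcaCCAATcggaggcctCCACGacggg
Hsp90b1, distal (chr10:86705623-86705671, minus strand): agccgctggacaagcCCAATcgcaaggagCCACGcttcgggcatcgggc
Hsp90b1, proximal (chr10:86705518-86705566, minus strand): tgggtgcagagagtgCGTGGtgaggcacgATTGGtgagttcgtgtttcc
Calr (chr8:84847060-84847108, minus strand): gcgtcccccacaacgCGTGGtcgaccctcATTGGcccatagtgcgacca
Canx (chr11:50325785-50325833, minus strand): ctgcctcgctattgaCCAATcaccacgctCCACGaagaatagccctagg
Pdia6 (chr12:17266476-17266524, plus strand): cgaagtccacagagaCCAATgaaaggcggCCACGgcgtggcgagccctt
Dnajc3 (chr14:118937812-118937860, plus strand): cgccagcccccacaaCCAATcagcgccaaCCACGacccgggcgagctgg
Creld2 (chr15:88819505-88819553, plus strand): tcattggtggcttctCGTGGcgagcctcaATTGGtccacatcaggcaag
Syvn1 (chr19:6046517-6046565, plus strand): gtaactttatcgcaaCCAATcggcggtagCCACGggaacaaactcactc

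Counted from the gene start, with -1 as the base just before it, the element began at -65 in Hspa5, -162 in Calr, -145 in Canx, -98 in Pdia6, -105 in Dnajc3, -126 in Creld2 and -44 in Syvn1. Hsp90b1 alone held 2 matches, beginning at -212 and -107, in opposite orientations. In Hspa5 the GENCODE M21 annotation has a transcript whose first exon reaches over the element, so only 29 bases are shown. A related element, ERSE-II (ATTGG, 1 base of any kind and CCACG, in 0.0365% of all windows), was found in Herpud1, beginning at -52, and in Dnajb11, within the first 18 transcribed bases.
Herpud1 (chr8:94386362-94386402, plus strand): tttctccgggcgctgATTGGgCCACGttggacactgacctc

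The core of the UPRE, another Xbp1 and Atf6 sequence (TGACGTGG, in 0.676% of all windows), matched in Txndc5, in the window of an annotated start that lies 910 bases inside the outermost start of the gene. The composite site of Atf4 and C/EBP proteins (TTGCATCA, in 0.895% of all windows) matched in Herpud1. A match is a description of letters and not evidence that a factor bound. The 8 genes with an ERSE had a median log2 ratio (TLR4ΔIEC over wild type, of units plus 1) of 0.38, with 7 above 0. The 25 without an ERSE match had a median of 0.34, with 20 above 0. Among these 25 are Herpud1 and Dnajb11, which matched ERSE-II, and Txndc5, which matched the UPRE core. Because a search for exact letters cannot show that a gene lacks the element, these medians do not compare genes with and without it. Whether the element bears on the ratio was not tested. The 5 other background genes with an ERSE had a median of 0.02. These ranged from Derl3 at 1.41 through Hnrnpa3 at 0.57, Alg12 at 0.02 and Spats2l at -0.13 to Pan2 at -0.26.

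**Figure D1:**
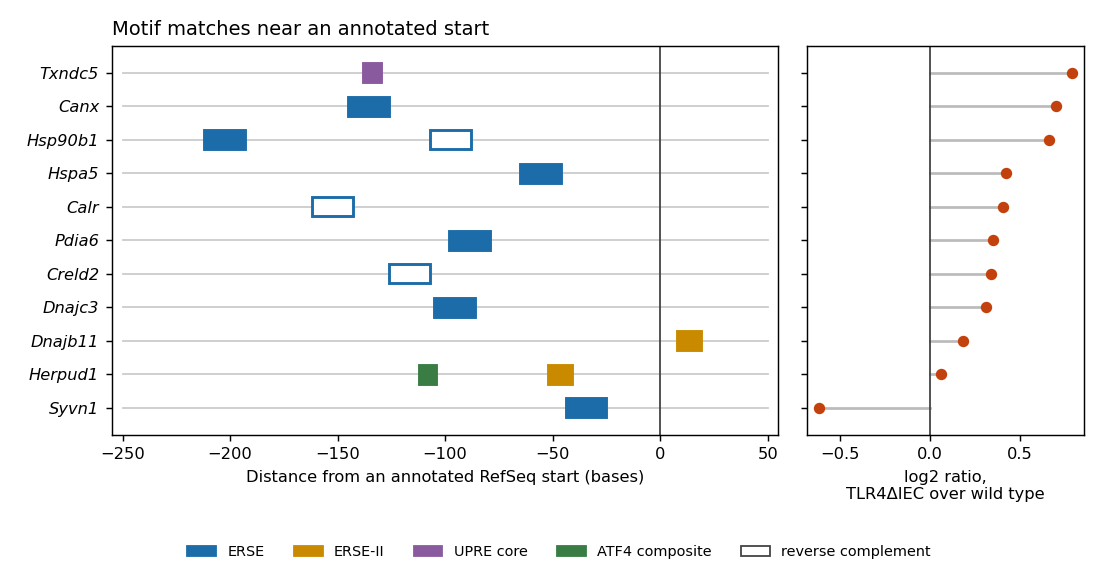
Position of each motif match relative to the annotated RefSeq start of its window (left, in bases, boxes drawn to scale, open boxes for the reverse complement) and the log2 ratio of the same gene (right), for the 11 genes with a match. Genes are ordered by ratio; ERSE boxes lie between positions -212 and -26, and Syvn1 is the only gene with an ERSE and a ratio below 0.

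Most of the 42 genes had a somewhat higher level in the TLR4ΔIEC pooled column, and the stress transcription factors Atf4 and Ddit3 had a lower one. The log2 ratio was above 0 for 34 of the 42 genes (81.0%, against 52.7% of the background). Ratios of at least 1.5-fold higher were seen for 9 genes (21.4%, against 6.57% of the background), namely Spcs3, Dnajc10, Txndc5, Pdia4, Canx, Hsp90b1, Pdia3, Spcs1 and Dnajb9. At least 1.5-fold lower were 3 genes (7.14%, against 10.2% of the background), Ddit3, Atf4 and Syvn1, a share no higher than that of genes in general. On the scale of units plus 1, no gene was 2-fold higher (background 1.29%), and 1 gene, Ddit3, was 2-fold lower (2.38%, background 2.79%). The fold of 1.5 was added because few members were known from earlier results of these data to reach 2-fold. The shares past 1.5-fold are therefore a description and not a test. The median log2 ratio was 0.33, against 0.03 over the 8888 background genes. Summed over all 42 genes, the level was 3358 units in wild type against 4151 in TLR4ΔIEC, or 0.333% and 0.432% of the sum over background genes.

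The differences were mostly small. Within 1.5-fold lay 30 of the 42 genes. In the ranking of the 8888 ratios from low to high, 24 of the 42 genes lay above the 75th percentile, 11 above the 90th and 3 below the 10th. The background itself was not balanced, with 584 genes 1.5-fold higher and 903 lower, so that 39.3% of the genes past this fold were higher. That share was 51.7% with scaling to the column total and 57.8% with scaling to the total less the 50 highest genes, and under both settings 11 members were 1.5-fold higher and 2 lower. Levels ranged from 6.55 units (Ern1) to 433 units (P4hb) in wild type. Among the 1000 most abundant background genes were 12 members in wild type and 18 in TLR4ΔIEC.

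**Figure D2:**
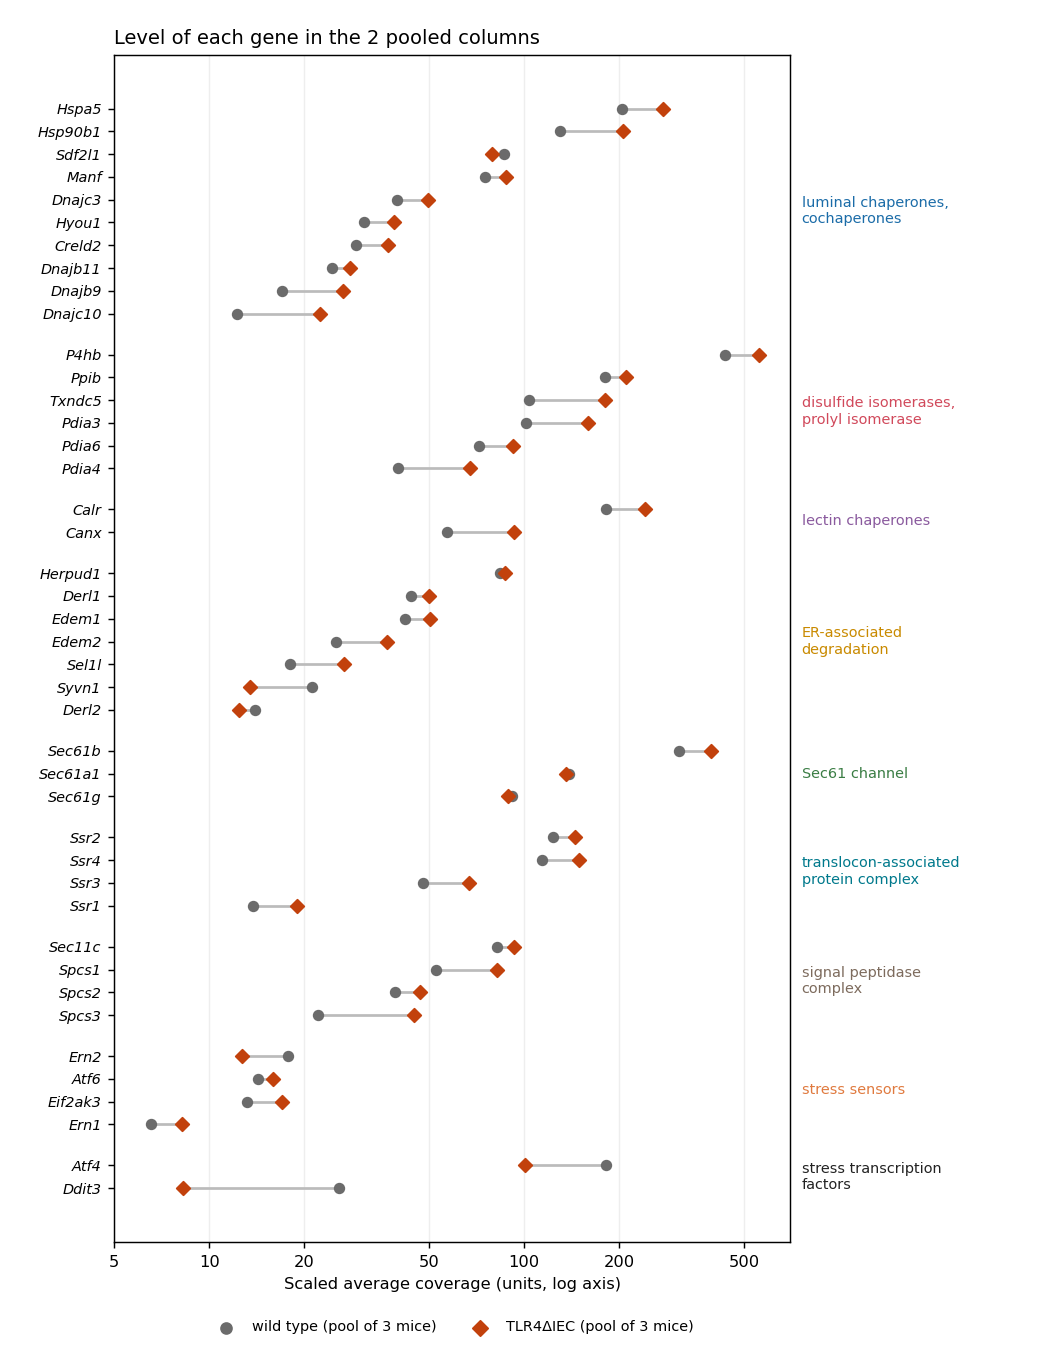
Level of all 42 genes in the wild type (grey circles) and TLR4ΔIEC (orange diamonds) pooled columns, in scaled units on a log axis, grouped by role. Each point is 1 pooled column with no error bar; diamonds lie to the right of circles for most folding and import genes and to the left for Ddit3, Atf4, Syvn1, Ern2, Derl2, Sdf2l1, Sec61g and Sec61a1.

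**Figure D3:**
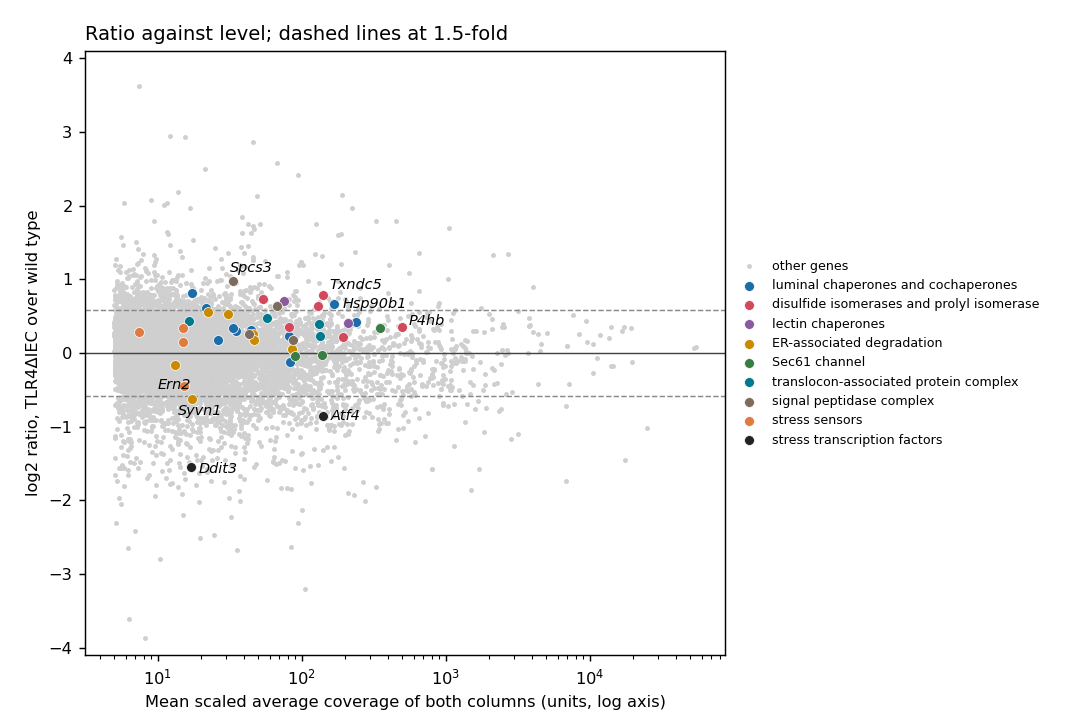
Log2 ratio (TLR4ΔIEC over wild type) against mean level on a log axis for 8888 genes (grey) and the 42 genes coloured by role; dashed lines mark 1.5-fold. The coloured points lie mostly between 0 and 1, with Ddit3 at -1.54 and Atf4 at -0.85 far below them.

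Plasma cell markers were higher in TLR4ΔIEC, as most folding genes were, and some enterocyte markers were lower. Of 9 plasma cell markers, all were listed in both columns above 0 units and 7 were measured. All 7 were above 0 in log2 ratio (52.7% of the background), and 6 were 1.5-fold higher (6.57% of the background). The 9 markers summed to 317 units in wild type against 892 in TLR4ΔIEC. The immunoglobulin joining chain Igj went from 202 to 702 units, Mzb1, an ER cochaperone of plasma cells, from 24.4 to 55.96, and Sdc1 was at 65.7 and 72.3. Derl3 and Fkbp11 stand in this list and also in the further pathway lists below. Goblet cell markers were split, with 3 of 8 above 0, among them Spink4 at 0.35 and Agr2 at 0.29, and Muc2 level at 433 and 421 units. Their sum was 16202 and 12166 units, and most of that difference lay in Zg16 (8557 and 5183 units) and Tff3 (3037 and 1791). All 5 Paneth cell markers were slightly above 0 (0.02 to 0.35), summing to 67871 and 72053 units. All 7 enterocyte markers were below 0 and summed to 16344 and 6241 units, 4 of them 1.5-fold lower (10.2% of the background). Apoa1 (10533 and 3154 units) and Fabp2 (3938 and 1749) made up most of the difference in the sum, Alpi was at -1.36, and Vil1 (-0.01) and Sis (-0.07) were level. Of 5 pancreatic acinar markers, Cela1 alone passed 5 units (6.89 and 11.1), and the others were under 2 units in both columns, none at 0. The part of cell composition in the ratios of the ER genes was not tested. In bulk tissue, fewer cells of a type and less RNA per cell cannot be told apart.

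Of the 10 luminal chaperones and cochaperones, 9 had a ratio above 0 and 3 were 1.5-fold higher, with a median log2 ratio of 0.33. In the background, 52.7% of genes lay above 0, 6.57% were 1.5-fold higher and 10.2% lower. The counts of each role below are to be read beside these values. Hspa5 (BiP, the Hsp70 chaperone of the ER and the gene most often read as a sign of the unfolded protein response) had 205 units in wild type against 275 in TLR4ΔIEC, a log2 ratio of 0.42. Hsp90b1 (Grp94, the Hsp90 of the ER; chromosome 10, 86690841 to 86705444, minus strand) stood at 129.5 and 205 units, a log2 ratio of 0.66, or 1.58-fold higher. These are the most abundant chaperones of the group, and both were higher in the TLR4ΔIEC column, Hspa5 by less than 1.5-fold. Dnajc10 (ERdj5, a disulfide reductase that works with BiP; chromosome 2, 80315446 to 80354055, plus strand) went from 12.3 units in wild type to 22.4 in TLR4ΔIEC, a log2 ratio of 0.82. Dnajb9 (ERdj4, a BiP cochaperone that restrains Ire1; chromosome 12, 44205897 to 44210068, minus strand) stood at 17.0 and 26.5 units, a log2 ratio of 0.61. The other cochaperones differed less: Dnajc3 (p58IPK) was at 39.5 and 49.4 units, and Dnajb11 (ERdj3) at 24.6 and 28.1. Hyou1 (Grp170), the nucleotide exchange factor of BiP, was at 31.1 and 38.6 units.

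Creld2, a small secreted ER stress protein, was at 29.1 units in wild type against 37.1 in TLR4ΔIEC. Manf, a secreted factor that binds BiP, was at 74.9 and 87.8 units. Sdf2l1, a BiP partner that is usually induced with it, was the exception of the group, with 86.1 units in wild type against 78.8 in TLR4ΔIEC. Its log2 ratio of -0.13 turned to 0.00 under quantile normalization.

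All 6 disulfide and prolyl isomerases had ratios above 0 (52.7% of the background), with a median log2 ratio of 0.50. Of these, 3 were 1.5-fold higher (6.57% of the background). P4hb (PDI, the main disulfide isomerase) was the most abundant gene of the set, at 433 units in wild type against 556 in TLR4ΔIEC, a log2 ratio of 0.36. Txndc5 (ERp46; chromosome 13, 38500266 to 38528824, minus strand) stood at 104 and 179.9 units, 1.73-fold higher, and Pdia4 (ERp72; chromosome 6, 47796141 to 47813512, minus strand) at 39.9 and 67.2, 1.67-fold higher. Pdia3 (ERp57, which works with the lectin chaperones; chromosome 2, 121413902 to 121438687, plus strand) was at 102 and 159 units, 1.56-fold higher. The isomerases thus differed among themselves, with Txndc5 and Pdia4 at the 97.3th and 96.7th percentiles of the background and Pdia6 (72.1 and 92.3 units, log2 ratio 0.35) close to P4hb. Ppib (cyclophilin B, a prolyl isomerase) had 180.2 and 209.8 units, the lowest ratio of the group at 0.22. Annotated exons of Snx22 on the opposite strand share 24.96% of the exonic bases of Ppib, and whether coverage was counted by strand is not given, so its value is uncertain.

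The lectin chaperones hold glycoproteins while they fold. Calr (calreticulin, soluble) was at 181 units in wild type against 241 in TLR4ΔIEC, a log2 ratio of 0.41. Canx (calnexin, its membrane-bound counterpart; chromosome 11, 50293957 to 50325673, minus strand) was at 56.8 and 92.96 units, a log2 ratio of 0.70 or 1.63-fold higher. The gap between both narrowed from 3.20-fold in wild type to 2.59-fold in TLR4ΔIEC.

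The import machinery was split. In the Sec61 channel, the pore subunit Sec61a1 was level at 139 units in wild type against 136 in TLR4ΔIEC, as was Sec61g at 91.5 and 88.6. Sec61b was at 309 and 393 units, a log2 ratio of 0.34. The ratios of Sec61a1 and Sec61g, at -0.03 and -0.04, lay slightly above 0 with scaling to the total (0.04 and 0.03), to the total less the 50 highest genes (0.08 and 0.06) or with quantile normalization (0.09 and 0.07). Sec61b and Sec61g have near-identical copies elsewhere in the genome (Gm10320 matches Sec61b at 98.3% over 474 bases, Gm10177 matches Sec61g at 100% over 420), so their values are uncertain one by one.

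All 4 subunits of the translocon-associated protein complex, which helps some signal peptides open the channel, had ratios above 0, within a narrow range from 0.24 to 0.48. Ssr1 was at 13.8 units in wild type against 19.0 in TLR4ΔIEC, Ssr2 at 123 and 145, Ssr3 at 47.6 and 66.8, and Ssr4 at 114 and 149.6. None reached 1.5-fold. The subunits form 1 complex, yet their levels per base differed 8.95-fold in wild type and 7.88-fold in TLR4ΔIEC, with Ssr1 lowest and either Ssr2 or Ssr4 highest. Part of the exons of Ssr2 (12.8% of bases) is shared with the pseudogene Gm10704 on the opposite strand.

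The signal peptidase complex held the highest ratio of all 42 genes. Spcs3 (chromosome 8, 54520433 to 54529998, minus strand), an accessory subunit of signal peptidase needed for its activity, had 22.2 units in wild type against 44.6 in TLR4ΔIEC, a log2 ratio of 0.98 or 1.97-fold higher on the scale of units plus 1. This ratio lay at the 98.6th percentile of the background and was based on 52477 read bases in wild type and 110764 in TLR4ΔIEC (recovered length 3466 bases). Spcs1 (chromosome 14, 30999826 to 31001666, minus strand) was at 52.4 and 82.1 units, 1.55-fold higher. Its exons share 16.3% of their bases with Glt8d1 on the opposite strand. Spcs2 at 38.9 and 46.8 units and the catalytic subunit Sec11c at 82.0 and 92.7 differed less, with log2 ratios of 0.26 and 0.18. Levels within the complex spanned 3.70-fold in wild type and 2.08-fold in TLR4ΔIEC. Spcs2 has a pseudogene copy, Spcs2-ps, that matches it at 95.8% over 683 bases.

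ER-associated degradation was the most mixed of the larger groups, with 5 of 7 genes above 0 and a median log2 ratio of 0.18. In this group 1 gene was 1.5-fold lower (10.2% of the background) and none 1.5-fold higher (6.57% of the background). Syvn1 (Hrd1, the ubiquitin ligase at the core of the degradation channel; chromosome 19, 6046576 to 6053718, plus strand) was at 21.2 units in wild type against 13.5 in TLR4ΔIEC, a log2 ratio of -0.62. Its partner Sel1l, which holds Hrd1 in a stable complex, went the other way, at 18.0 and 26.8 units and a log2 ratio of 0.55. Syvn1 was thus the higher of both in wild type and the lower in TLR4ΔIEC. The Syvn1 ratio was -0.55, -0.52 and -0.50, under 1.5-fold, with scaling to the total, scaling to the total less the 50 highest genes and a pseudocount of 5 units. With both of these scalings, Sel1l (0.62 and 0.65) and Edem2 (0.59 and 0.63) passed 1.5-fold.

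Edem1 and Edem2 mark misfolded glycoproteins by trimming their mannose. Edem1 was at 41.9 units in wild type against 50.2 in TLR4ΔIEC, and Edem2 at 25.2 and 36.7. Derl1 and Derl2 are membrane proteins of the exit channel. Derl1 was at 43.7 and 49.7 units and Derl2 at 14.0 and 12.5, a log2 ratio of -0.16. A processed pseudogene, Gm35638, matches Derl1 at 95.4% over 652 bases. Herpud1, a scaffold of the Hrd1 complex that is strongly induced by ER stress, was nearly equal, at 83.5 and 87.2 units and a log2 ratio of 0.06.

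**Figure D4:**
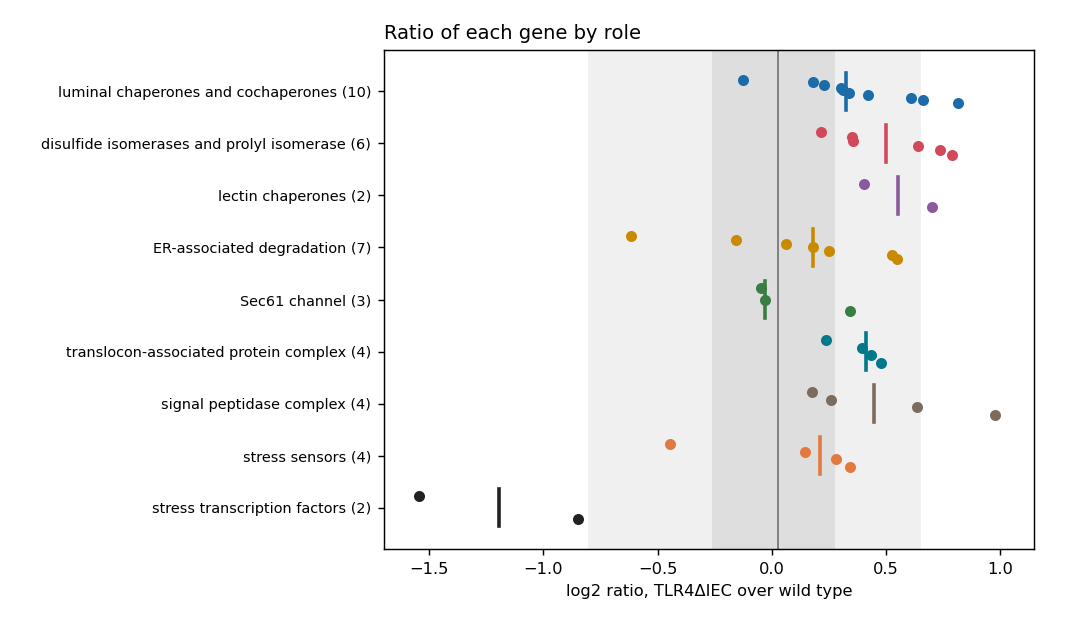
Log2 ratio (TLR4ΔIEC over wild type) of each of the 42 genes by role, with the number of genes in brackets and a vertical bar at each group's median. The grey line is the background median of 0.03, the dark band its 25th to 75th percentile (-0.26 to 0.27) and the light band its 5th to 95th (-0.80 to 0.65); both stress transcription factors lie left of the light band.

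The 4 sensors were the least abundant group, between 6.55 and 17.7 units in wild type. Ern1 (Ire1α, found in most cells) was at 6.55 units in wild type against 8.19 in TLR4ΔIEC, a log2 ratio of 0.28. Ern2 (Ire1β, an isoform restricted to epithelia of the gut and airways, where goblet cells are a main site) was at 17.7 and 12.8 units, a log2 ratio of -0.45. The ratio of Ern2 to Ern1 was 2.71 in wild type and 1.56 in TLR4ΔIEC, so Ern2 was the more abundant form in both columns. Goblet cell markers were split, as given above, and their part in the Ern2 ratio was not tested. Eif2ak3 (Perk) was at 13.2 and 17.0 units, and Atf6 at 14.3 and 15.9, both within 1.5-fold. The averages of Ern1 and Eif2ak3 rested on a different recovered length in each column.

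The transcription factors Atf4 and Ddit3 were the lowest of the set. Atf4 (chromosome 15, 80255184 to 80257545, plus strand), whose protein is made when Perk or a related kinase slows translation, was at 182 units in wild type against 101 in TLR4ΔIEC, a log2 ratio of -0.85 and 1.80-fold lower. Ddit3 (Chop, a target of Atf4 linked to cell death under lasting stress; chromosome 10, 127290793 to 127296291, plus strand) was at 25.9 and 8.23 units, a log2 ratio of -1.54 and 2.92-fold lower. Only 0.81% of background genes had a ratio as low as that of Ddit3, which was based on 15406 read bases in wild type and 5130 in TLR4ΔIEC (recovered length 871 bases). The Ddit3 ratio lay between -1.64 and -1.22 over the alternative settings and that of Atf4 between -0.85 and -0.73. The average of Atf4 rested on a recovered length of 1847 bases in wild type and on a multiple of 487 bases in TLR4ΔIEC, the nearest being 1948 (5.47% longer). Atf4 is regulated largely at translation, and its RNA level is no measure of its protein.

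Further genes of the pathway, from 10 lists of 143 genes in all, were measured for 127 genes. Of these, 92 had ratios above 0 and 35 below, with a median log2 ratio of 0.17. At least 1.5-fold higher were 15 (11.8%, against 6.57% of the background) and 1.5-fold lower 5 (3.94%, against 10.2%). In the background, 52.7% of genes lay above 0 with a median of 0.03, and each list below is to be read beside these values. The list nearest to the isomerases above, other disulfide isomerases and ER oxidases, had the highest median, 0.56 over 11 measured genes, with 10 above 0 and 5 past 1.5-fold. In that list Txndc11 was at 0.65, the sulfhydryl oxidase Qsox1 at 0.56 and Tmx2 at 0.35, while Erp29, an abundant luminal protein, was at -0.48 (156 units in wild type against 112 in TLR4ΔIEC). Oligosaccharyltransferase, which adds glycans to chains as they enter, had a median of 0.26 with 8 of 12 above 0. Its catalytic subunits Stt3a (37.6 and 67.4 units, log2 ratio 0.83) and Stt3b (0.62) and its subunit Rpn2 (0.64) were 1.5-fold higher, and the small subunit Ost4 (165 and 90.01 units) was 1.5-fold lower at -0.87.

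Other degradation factors had a median of 0.18 with 13 of 18 above 0. Vcp, the ATPase that pulls chains out of the membrane, was at 60.8 units in wild type against 101 in TLR4ΔIEC (0.73), Man1b1 was at 0.27, and Aup1 was at -0.31. Other translocon factors (median 0.19, 10 of 12 above 0) included Emc6 at 0.74, Tram1 at 0.46, Emc7 at -0.30 and Emc10 at -0.57. The signal recognition particle and its receptor had a median of 0.19 with 8 of 10 above 0, among them Srp72 at 0.55, Srpr at 0.21 and Srp68 at 0.19, against Srp14 at -0.37. Other folding and glycoprotein quality control factors had a median of 0.15 with 8 of 12 above 0, and no gene past 1.5-fold in either direction. The glucosidase subunits Ganab (0.56) and Prkcsh (-0.32) lay on opposite sides, Fkbp2 was at 0.15 and Cnpy2 at -0.06. The coat proteins and receptors that carry cargo out of the ER had a median of 0.13 with 17 of 21 above 0, among them Tmed10 at 0.32, Sec13 at 0.28, Sec31a at 0.23 and, lowest, Sar1b at -0.57.

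Other stress transcription factors lay on both sides of 0. Xbp1, the factor activated by Ire1, was at 116 units in wild type against 165 in TLR4ΔIEC, a log2 ratio of 0.50. Coverage does not separate its spliced from its unspliced form. In the list of Xbp1 and other ER stress factors, 5 of 11 genes lay above 0 with a median of -0.10. None was 1.5-fold higher (6.57% of the background) and 2 were 1.5-fold lower (10.2% of the background). Creb3l3, a membrane-bound factor of liver and gut lipid metabolism, was lowest at -1.83 (113 and 30.9 units). Creb3 was at -0.10 and Nfe2l1 at 0.06. Known targets of Atf4 and Chop had a median of 0.06 with 10 of 17 above 0, 2 genes 1.5-fold higher and 2 lower. The background had a median of 0.03, with 52.7% of genes above 0, 6.57% 1.5-fold higher and 10.2% lower. The genes 1.5-fold lower were the translation repressor Eif4ebp1 (36.2 and 20.7 units, -0.78) and Ddit4 (-0.62), while Nupr1 was at -0.43 and the tRNA synthetase Wars at 0.50. The median of the targets thus lay near that of genes in general, over the 17 of 23 listed targets that passed the filter. Whether the levels of Atf4 and Ddit3 bear on these targets was not tested. Kinases and phosphatases of eIF2 had a median of 0.19 with 5 of 6 above 0, led by eIF2α itself (Eif2s1, 0.76), with Ppp1r15b at 0.22, Eif2ak1 at 0.16 and Eif2b5 at 0.02.

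**Figure D5:**
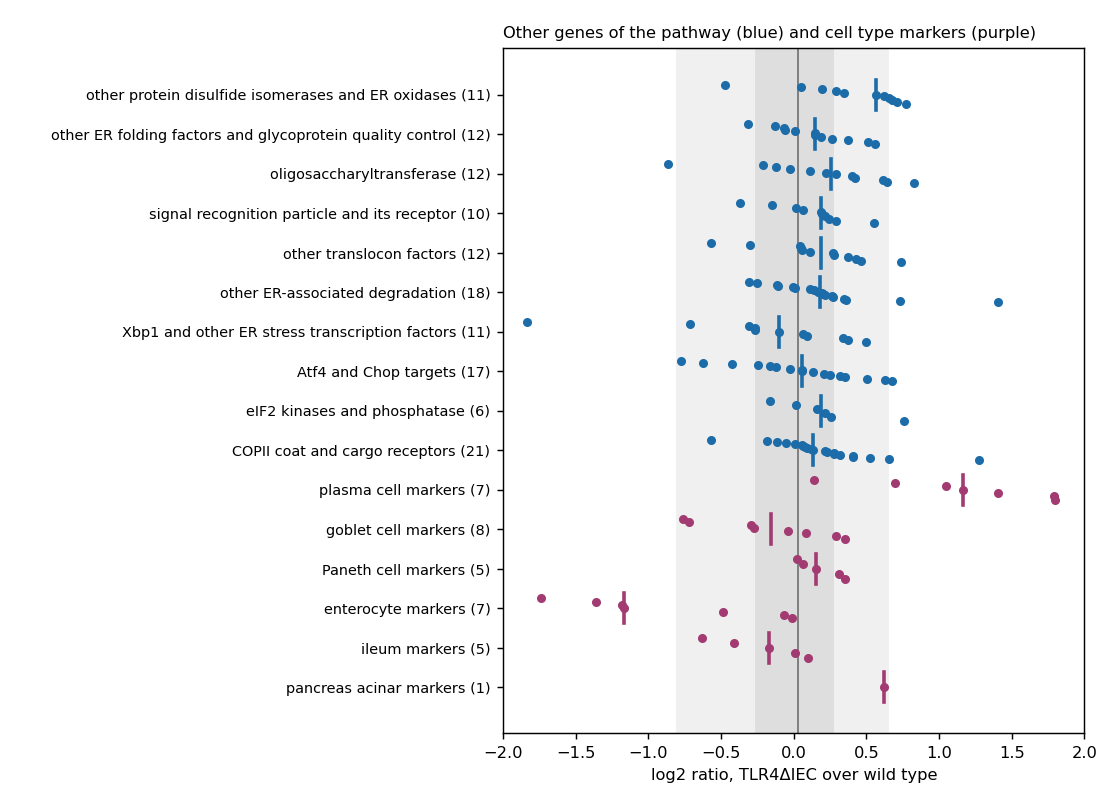
Log2 ratio (TLR4ΔIEC over wild type) of the measured genes of 10 further pathway lists (blue) and 6 marker lists (purple), with the number measured in brackets, a bar at each median and the same background bands as in the plot of ratios by role. Plasma cell markers lie to the right and enterocyte markers to the left of the background median.

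All 42 genes passed the filter at 5 units, and 33 had a mean of at least 20 units. Where a common length could be recovered behind both averages (39 of 42 genes), the smallest amount of read sequence was 5130 bases, for Ddit3 in TLR4ΔIEC. The read length is not given in the sources used here, so read numbers and counting intervals cannot be derived. Across the 42 genes the ratio was weakly related to transcript length (Spearman's rho 0.19) and to level (0.12), and across background genes the corresponding values were 0.16 and -0.13. Genes are not independent replicates, and all values share the same pair of pools. Transcripts over 4000 bases had a median ratio of 0.10 in the background and 0.33 among 10 members. Those under 1000 bases had medians of -0.10 and 0.20 (6 members), and those between 3000 and 4000 bases had 0.03 and -0.03 (5 members). Transcripts between 1000 and 2000 bases had -0.05 and 0.15 (6 members), and those between 2000 and 3000 had 0.01 and 0.42 (15 members). Overlapping annotated exons on the opposite strand were found for 14 of the 42 genes, covering over 10% of exonic bases in 4, namely Ppib, Spcs1, Ssr2 and Hsp90b1.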

How the data were processed

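Total RNA from ileum was depleted of ribosomal RNA, fragmented with RNase III and made into Ion Torrent libraries with strand-specific reverse transcription, per the labels' protocols. The authors deposited average coverage, a signal per RefSeq transcript entry, as 1 column per genotype, per the file headers and labels. The submitters' processing notes name TopHat2 2.0.10, Bowtie2 2.1.0 and mm10, without their roles. How coverage was computed, and whether strand was used, is not given in the sources used here. All 22001 entries in both columns were scaled by the median of ratios (factor 1.05) to a mean total of 1000000 units. The entry with the highest mean stood for a symbol. Log2 ratios used a pseudocount of 1 unit, which understates ratios of weakly covered genes, and a filter at a mean of 5 units (coverage 3.41 in wild type, 3.58 in TLR4ΔIEC).

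The members and lists were chosen with earlier results of these data known. So was the fold of 1.5, used beside 2 because few members were known to reach 2-fold. All members are named, with up to 4 genes per further list (largest absolute ratio among genes of at least 20 units), other genes being marked as chosen after their values were seen. A gene that this rule names is not reported here. Markers outside that rule (Slc10a2, Muc2, Agr2, Vil1, Sis, Cela1) were chosen after their values were seen, to show the spread of their lists. With 1 pooled column a group there is no test, and a gene is described as past a fold of 1.5 or 2 beside the share of all genes past it. Lengths behind averages were recovered as the smallest denominator (tolerance 1e-11) common to both values, and may be divisors of the true length. Near-identical copies were transcripts of other genes matched by blastn 2.17.0 at 95% identity over at least 100 bases. Gene coordinates and promoters are from RefSeq (GRCm38.p6, the assembly of mm10), exon overlaps from GENCODE M21. The scaling and the recovery of planted log2 differences were tested on simulated data, and the other steps were not. Python 3.11.15, numpy 2.4.6, pandas 2.3.3 and scipy 1.17.1 were used.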

Additional observations from a re-analysis of the deposited data

How the results depend on the processing

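No paired analysis was possible because each genotype is 1 pooled column, and leaving out a mouse was not possible for the same reason. Other scalings (to the total, to the total less the 50 highest genes, by quantiles), pseudocounts, filters, averaging of entries and a restriction to genes of equal recovered length were tried. The median log2 ratio of the 42 genes (0.33) lay between 0.28 and 0.43. Scaling to the total less the 50 highest genes gave 0.43, where the background median also moved, from 0.03 to 0.12, so that the difference between both stayed at 0.30. The number of members 1.5-fold lower was 1 with a filter at 20 units, which leaves out Ddit3 and Syvn1, and the number 1.5-fold higher ranged from 8 to 11. No member past 1.5-fold changed sign. Of the ratios taken gene by gene over these settings, 395 kept their side of 1.5-fold, 4 passed it and 4 fell short of it. Another 5 near 0 changed sign with larger moves. The 395 include 42 ratios filtered at 1 unit, 33 filtered at 20 units, 42 unfiltered and 39 of equal recovered length. These settings only choose genes and could not change a ratio, so they say nothing about its stability. Averaging of entries, with 42 more of the 395, could shift a ratio only through the scaling, because each of the 42 members has 1 entry. Dnajb9 fell short of 1.5-fold with a pseudocount of 5 units (0.52). Spcs3 (0.98 as reported) passed 2-fold with scaling to the total (1.05) and to the total less the 50 highest genes (1.08). It also did so with quantile normalization and with a pseudocount of 0.1 units (1.01 each). Background genes 1.5-fold higher and lower numbered 284 and 622 with a pseudocount of 5 units, 229 and 489 with a filter at 20 units, 1000 and 1322 when filtered at 1 unit, 1140 and 1515 unfiltered, and 905 and 661 after scaling to the total less the 50 highest genes. Ratios have no replicate check.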

Other observations

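Weakly covered genes of the same pathway, below a mean of 20 units and chosen after their values were seen, held several of the highest ratios. Derl3, a degradation factor of professional secretory cells that is counted above both as a pathway gene and as a plasma cell marker, was at 3.54 units in wild type against 11.1 in TLR4ΔIEC (log2 ratio 1.41). Kdelr3, a receptor that returns escaped chaperones to the ER, was at 5.25 and 14.1 units (1.27), while its relatives Kdelr1 (67.7 and 70.7 units) and Kdelr2 (94.4 and 102) were nearly level. The oxidase Ero1l, which supplies oxidizing equivalents to disulfide isomerases, was at 6.82 and 11.5 units (0.68), and Pdia5 at 8.82 and 14.1 (0.62). The folding factor Fkbp11, also a plasma cell marker here, had a mean under 5 units (1.73 and 5.28). Trib3, a target of Atf4 and Chop, likewise had a mean under 5 units and was lower (6.44 and 2.98 units).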
